A study of Caenorhabditis elegans with 2 samples.

Results

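The genes described here are 6 sugar transporter genes of Caenorhabditis elegans, swt-1, swt-3, swt-4, swt-6, swt-7 and fgt-1, out of 19973 protein-coding genes. They were read in ChIP-seq peak lists of MXL-2 from whole L4 larvae. The genes were chosen by name with their values in these lists in view, and the regions below were selected on position and on the lists' own threshold: a region counted for a gene where its summit lay inside the gene or within 5 kb of it. By that rule 6 of the 968 regions of the whole-experiment list lay at 3 of the 6 genes. The number of regions at each gene is therefore a description and carries no test.

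Every library came from strain RW12316, in which the endogenous mxl-2 locus carries a TY1::EGFP::3xFLAG tag placed there by CRISPR. The immunoprecipitation used an antibody against GFP, although the labels give mxl-2 as the antibody. Larvae were synchronised as starved L1 and collected at 48 h as L4, chromatin was sonicated to 200 to 800 bp, and 2 biological replicates form the 1 group of the study. All cells of the animal are mixed in each library, so a region cannot be placed in a tissue. No untagged or other control library was analysed here, and sequencing depth is unknown because the files give no read counts.

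SWEET proteins, encoded by the swt genes, are small membrane transporters that let sugars cross a membrane along their gradient. FGT-1 belongs to the other large family of facilitative sugar transporters, that of the mammalian GLUT (SLC2) proteins, and is the main glucose transporter of this type described in C. elegans; the annotation used here lists it as fdgt-1. MXL-2 is the Mlx-like transcription factor of the Myc-Max-Mondo network and pairs with the Mondo protein MML-1, whose mammalian counterparts ChREBP and MondoA respond to glucose and bind E-box sequences. Proteins of this family recognise the palindrome CACGTG.

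The 6 regions are shown by their sequence, since they fall into sites with and without an E-box. Each line gives the 121 bases centred on the summit, from the RefSeq genome of build WBcel235 (ce11), on the plus strand. Capitals mark the E-box CACGTG, its variant CACATG (read as CATGTG on the other strand) and GTTCGA (read as TCGAAC on the other strand), the core of the B box inside transfer RNA genes. The swt-3 and swt-4 genes lie on the minus strand, so their lines run against the direction of transcription.
swt-1 at −3263 bp, IV:304182-304302: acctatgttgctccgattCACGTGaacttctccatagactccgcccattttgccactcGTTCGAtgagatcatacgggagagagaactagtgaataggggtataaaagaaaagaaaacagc
swt-3 at −1489 bp, IV:10782112-10782232: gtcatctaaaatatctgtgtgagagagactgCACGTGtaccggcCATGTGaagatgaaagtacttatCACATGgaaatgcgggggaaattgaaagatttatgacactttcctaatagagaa
swt-3 at −95 bp, IV:10780718-10780838: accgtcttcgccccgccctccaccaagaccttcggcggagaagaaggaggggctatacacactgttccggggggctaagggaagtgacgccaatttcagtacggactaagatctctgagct
swt-3 at 2134 bp, IV:10778489-10778609: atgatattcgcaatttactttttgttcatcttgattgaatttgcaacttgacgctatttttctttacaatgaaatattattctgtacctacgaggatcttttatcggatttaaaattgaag
swt-3 at 3328 bp, IV:10777295-10777415: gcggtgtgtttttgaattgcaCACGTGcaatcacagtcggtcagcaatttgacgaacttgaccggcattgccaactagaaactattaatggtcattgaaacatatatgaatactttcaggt
swt-4 at 4338 bp, III:10624745-10624865: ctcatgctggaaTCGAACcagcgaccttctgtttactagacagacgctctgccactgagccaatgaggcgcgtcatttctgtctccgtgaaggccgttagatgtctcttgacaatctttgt

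Positions are counted from the annotated 5' end of the gene, negative upstream and positive in the direction of transcription. Signal is the value the authors' peak caller gave each candidate, set separately for each list; each list was made from alignments and a further file whose type is not stated, so what the signal is measured over is not known. IDR, the irreproducible discovery rate, estimates the share of candidates of that rank or better that would not repeat between the sets compared, and the thresholded lists hold candidates at an IDR of 0.01 or lower. The whole-experiment list held 968 regions with a median signal of 82.1 and the conservative list 993 with a median of 81.4. The lists of replicates 1 and 2 held 448 and 454 regions, with medians of 59.1 and 60.1.

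The 6 regions were all 260 bp wide, and none had its summit inside one of the 6 genes. The swt-3 gene had 4 of them, swt-1 had 1 and swt-4 had 1, while swt-6, swt-7 and fgt-1 had none. Across the genome, 10.9% of protein-coding genes had a region within 5 kb in the whole-experiment list. The choice of the genes used this count, so nothing is read from 3 of 6 against that share. In the conservative list the same 3 genes had 5 regions, against 11.2% of all genes with one. In the list of replicate 1 swt-3 alone had a region, against 5.19% of all genes, and in that of replicate 2 swt-1 and swt-3 had 3 regions between them, against 5.29%.

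At swt-3 (WBGene00007384, IV:10778985-10780683, minus strand, 1699 bp with 3 exons), regions lay on both sides of the gene. From the first base of the outermost to the last they spanned 5077 bp, with 1194, 2229 and 1394 bp between neighbouring summits. Of all protein-coding genes, 24 (0.120%) had 4 or more regions within 5 kb. These 24 genes formed 17 loci that shared no region, and the highest number at a gene was 8. The 1 other gene among them that shared regions with swt-3 was its neighbour T25B9.9. All 4 summits at swt-3 also lay inside T25B9.9 or within 5 kb of it, so the same rule counts them for both genes. No further region lay within 10 kb of swt-3. Candidates inside the gene body did not reach the threshold, at signals of 36.2, 38.9 and 33.5 at 500, 963 and 1593 bp. The lowest IDR among them was 0.168, and the median signal of all whole-experiment candidates was 22.5.

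The strongest of the 4 swt-3 regions lay upstream at −1489 bp (chromosome IV, summit at base 10782172), in the intergenic space between swt-3 and srd-7, a gene named as a serpentine receptor. Its signal was 122.0, rank 193 of 968, at an IDR of 0.000353. In replicate 1 the signal was 62.4 (IDR 0.000588) and in replicate 2 it was 53.8 (IDR 0.00261), a mean of 58.1 ± 6.08 (SD, n = 2). It was the only region of the 6 in the lists of both replicates. It also held the most E-box letters: CACGTG 26.5 bp from the summit and CACATG at 13.5 and 9.5 bp, with 7 and 17 bases between successive hexamers. Both hexamers together occurred within 50 bp of 3.10% of all summits.

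The swt-3 promoter region had its summit 95 bp upstream of the 5' end (IV:10780648-10780907) and a signal of 94.4, rank 363. The letters CANNTG, which cover every E-box, did not occur within 50 bp of its summit. Replicate 1 gave 32.5 (IDR 0.0873) and replicate 2 gave 47.6 (IDR 0.00498), so only replicate 2 listed it (mean 40.1 ± 10.7, SD, n = 2). Its GC content was 48.1%, the highest of the 6, where the median of all regions was 44.6%.

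Downstream of swt-3 were the other two regions. The one at 3328 bp (chromosome IV, summit at base 10777355) lay 1630 bp past the 3' end of swt-3, in an intron of T25B9.9, which runs on the opposite strand and is annotated as 6-phosphogluconate dehydrogenase, an enzyme of the pentose phosphate pathway. Its signal was 79.6, rank 519, with CACGTG 36.5 bp from the summit and a second copy at 102.5 bp. The replicates gave nearly equal signals of 41.4 and 40.7, both at an IDR of 0.0264 and so in neither list (mean 41.0 ± 0.472, SD, n = 2). The annotated 5' end of swt-3 is the nearest of any protein-coding gene to this summit, although T25B9.9 holds it.

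The swt-3 region at 2134 bp (IV:10778419-10778678) lay between the 3' end of swt-3, 436 bp away, and T25B9.9. It was the weakest of the 6, with a signal of 63.5, rank 864 of 968, and an IDR of 0.00464. The replicates gave 39.7 (IDR 0.113) and 24.3 (IDR 0.672), a mean of 32.0 ± 10.9 (SD, n = 2), and the conservative list left it out at an IDR of 0.0174. Its GC content was the lowest of the 6 and below the 5th percentile of all regions (34.0%), and the nearest CACGTG was 131.5 bp from the summit.

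**Figure D1:**
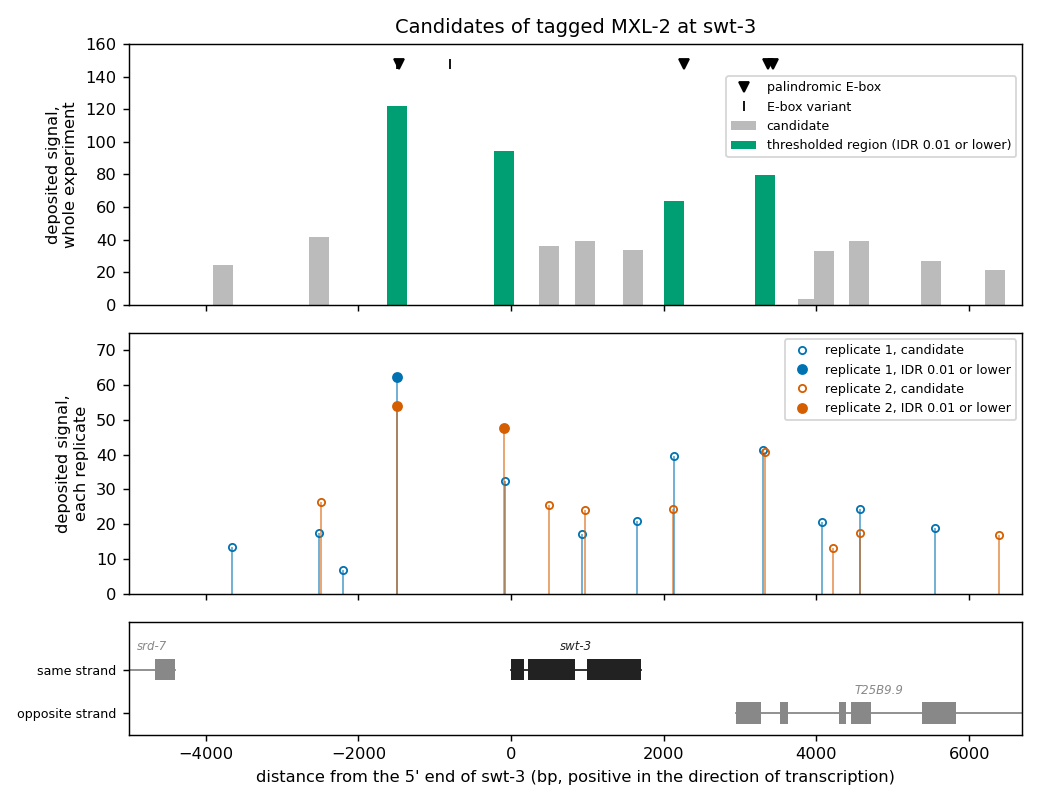
Candidates at swt-3 against distance from its 5' end in bp. The upper panel gives the whole-experiment signal, with thresholded regions in green and other candidates in grey and with E-box positions as marks. Marks cover only the stretch spanned by the 4 thresholded regions. The lack of marks beyond that stretch says nothing about E-boxes there. The middle panel gives each replicate's signal, and the lower panel draws exons as boxes. The 4 green bars (63.5 to 122.0) lie on both sides of the gene, and bars inside it stay at 38.9 or lower.

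The swt-1 region (WBGene00019300, IV:307505-311236, plus strand, 3732 bp with 7 exons) lay 3263 bp upstream of the gene in intergenic space, IV:304112-304371. Its signal was 89.3, rank 400 of 968, at an IDR of 0.00117. The signal was 36.4 in replicate 1 (IDR 0.069) and 50.8 in replicate 2 (IDR 0.00594), a mean of 43.6 ± 10.1 (SD, n = 2), so replicate 2 alone listed it. The summit had CACGTG 39.5 bp away. GTTCGA lay closer, over the summit base itself, but no annotated noncoding RNA gene overlapped the region. The candidate next in rank at swt-1 was at −2593 bp with a signal of 51.0 and an IDR of 0.115, and the candidate at its promoter, at −142 bp, had 47.0 (IDR 0.459).

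At swt-4 (WBGene00012647, III:10625930-10629143, minus strand, 3214 bp with 7 exons and 3 transcripts), the region lay 1125 bp past the 3' end, at 4338 bp. It fell in an intron of hpr-9, a gene of the DNA damage checkpoint on the opposite strand, whose 5' end is nearer, at 3254 bp. The region (III:10624675-10624934) overlapped a threonine transfer RNA gene, III:10624742-10624813, and a further noncoding RNA gene, Y39A1A.29. Its signal was 63.9, rank 848, at an IDR of 0.00552, the highest IDR of the 6. Replicate 1 gave 34.9 (IDR 0.0735) and replicate 2 gave 30.4 (IDR 0.0851), a mean of 32.7 ± 3.13 (SD, n = 2), and neither listed it. No CACGTG lay in the region. Of its 30-base words, 74.0% occur once in the genome, while in the other 5 regions all of them do.

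**Figure D2:**
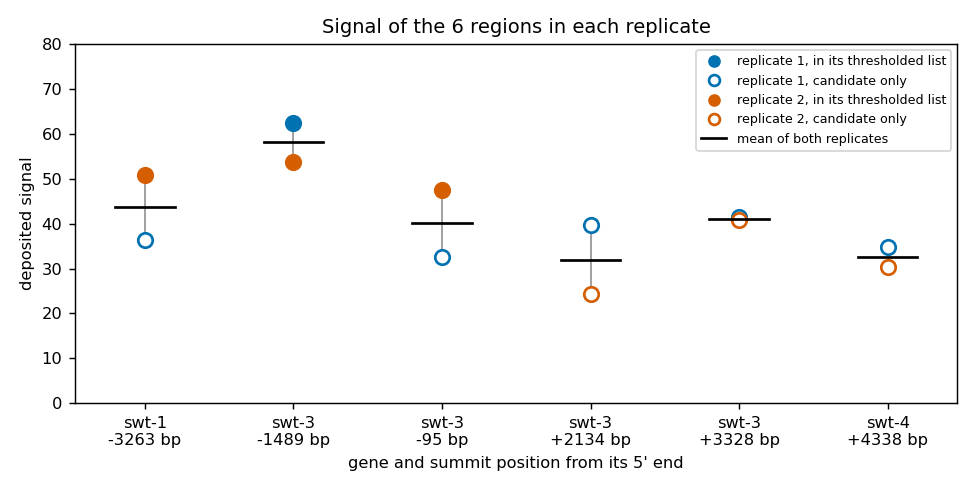
Deposited signal (vertical axis) of each of the 6 regions in replicate 1 (blue) and replicate 2 (orange), with black bars for the mean; filled points are in that replicate's thresholded list and open points are candidates only. Filled points for both replicates occur at swt-3 −1489 bp only, at 62.4 and 53.8.

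Between replicates the order of the 6 regions was not the same. Replicate 2 was higher at swt-1 (ratio of replicate 2 to replicate 1 of 1.39) and at the swt-3 promoter (1.47). Replicate 1 was higher at swt-3 2134 bp (ratio 0.612), swt-3 −1489 bp (0.862) and swt-4 (0.873), and the ratio at swt-3 3328 bp was 0.984. All 6 ratios lay between the 5th and 95th percentiles over 944 regions with a candidate in both replicates, 0.566 and 1.93, where the median was 1.02. Of the 6, 1 (16.7%) was in both replicates' lists, 2 (33.3%) in one and 3 in neither. Over all 968 regions these shares were 29.9%, 28.8% and 41.3%.

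By sequence, 3 of the 6 regions had CACGTG within 50 bp of the summit, those at swt-1 and at −1489 and 3328 bp of swt-3. Of all 968 regions, 16.2% had it. In the conservative list the count was 3 of 5 regions against 16.5%, in replicate 1 it was 1 of 1 against 23.7%, and in replicate 2 it was 2 of 3 against 22.5%. The same 3 regions were those with any CANNTG, which 49.5% of all regions had, and 1 of the 6 had CACATG, which 13.6% had. GTTCGA occurred at swt-1 and swt-4, 2 of 6, against 11.7% of all regions. These counts describe 6 sequences chosen for their genes, of which 4 share the swt-3 locus, and a match is a description of the letters, not a bound site.

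By position, 1 of the 6 summits (swt-3 −95 bp) was within 1000 bp of the 5' end of a protein-coding gene, against 42.6% of all regions. The swt-4 region was the 1 of 6 that overlapped a noncoding RNA gene, against 29.4% of all regions, and the 1 of 6 that overlapped a transfer RNA gene, against 14.0%.

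The other 3 genes had candidates but no thresholded region. At fgt-1 (WBGene00019207, II:1504566-1509831, plus strand, 5266 bp with 9 exons) the strongest of 14 candidates had a signal of 47.3 and lay in a coding exon at 2203 bp, at an IDR of 0.147. The strongest fgt-1 candidates of the replicates had signals of 22.8 (IDR 0.855) at 3433 bp and 30.8 (IDR 0.176) at 2177 bp, so they were different sites. At swt-7 (WBGene00019645, V:5029319-5030815, minus strand, 1497 bp with 5 exons) the strongest of 18 candidates had 40.0 at 5494 bp, in a coding exon of the neighbour cpt-4, at an IDR of 0.319 in the whole-experiment list and 0.0601 in the conservative list. The lowest IDR among the whole-experiment candidates of swt-7 was 0.251. The replicates gave swt-7 at most 25.2 and 23.5.

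At swt-6 (WBGene00011190, V:13954356-13956176, plus strand, 1821 bp with 5 exons) the strongest of 9 candidates had 31.7 at −3423 bp, in a coding exon of R10D12.8, at an IDR of 0.45. The lowest IDR among the 9 was 0.281. The strongest swt-6 candidates of the replicates had signals of 17.4 at 6010 bp and 18.8 at 3613 bp, so they were different sites. The nearest thresholded regions were 10.2 kb from fgt-1, 16.6 kb from swt-7 and 99.1 kb from swt-6.

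**Figure D3:**
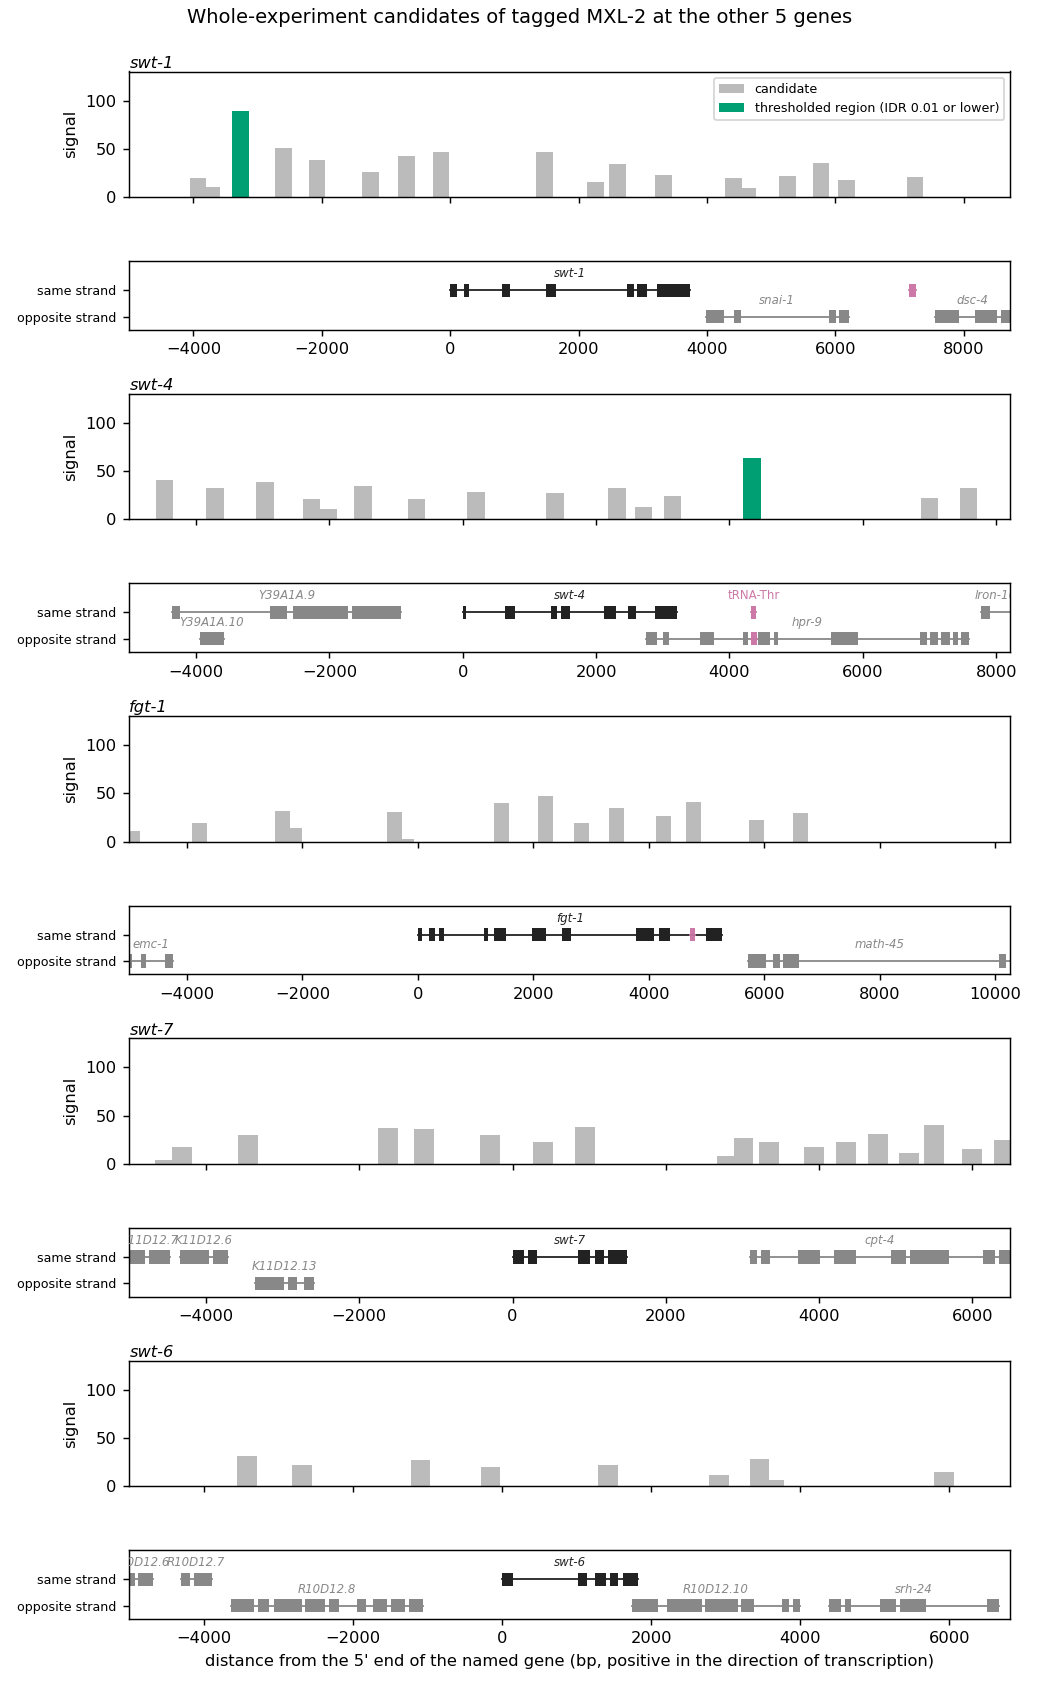
Whole-experiment candidates (signal on the vertical axes) at the other 5 genes against distance from each 5' end in bp, with thresholded regions in green, other candidates in grey, protein-coding exons in black or grey and noncoding RNA genes in pink. Green bars stand at swt-1 (89.3) and at swt-4 (63.9, over the transfer RNA gene), and the bars at fgt-1, swt-7 and swt-6 reach 47.3, 40.0 and 31.7.

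Ranked by their strongest whole-experiment candidate within 5 kb, the order was swt-3 (122.0), swt-1 (89.3), swt-4 (63.9), fgt-1 (47.3), swt-7 (40.0) and swt-6 (31.7). The median of this value over the 19258 protein-coding genes with a candidate was 42.8. The share of genes with a stronger candidate was 2.55% for swt-3, 5.14% for swt-1, 11.8% for swt-4, 33.7% for fgt-1, 58.2% for swt-7 and 85.9% for swt-6. The swt-7 and swt-6 values were below the median of all genes. In the replicates the order of swt-3, swt-1 and swt-4 among themselves recurred: replicate 1 gave signals of 62.4, 36.4 and 34.9, and replicate 2 gave 53.8, 50.8 and 30.4. The signals of swt-3 and swt-1 were close in replicate 2, as were those of swt-1 and swt-4 in replicate 1. The error of a signal within a list is unknown, so the order of these pairs is uncertain. The order of the other 3 genes did not recur in replicate 1, where swt-7 (25.2) was above fgt-1 (22.8) and above the median of all genes, 24.3, with fgt-1 below it. It recurred in replicate 2, where fgt-1 (30.8) was level with swt-4 (30.4).

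**Figure D4:**
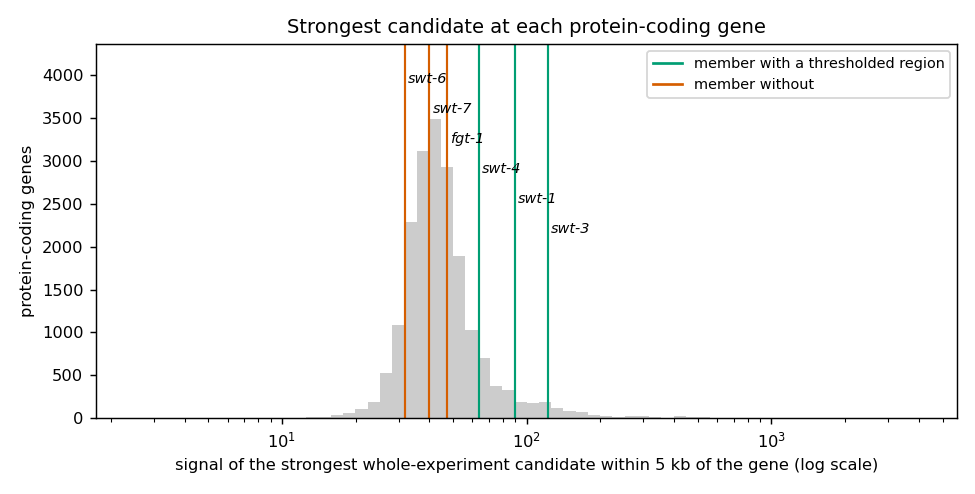
Number of protein-coding genes (vertical axis) by the signal of their strongest whole-experiment candidate within 5 kb (horizontal log axis), with lines for the 6 sugar transporter genes, green where the gene has a thresholded region. The lines of swt-6 (31.7), swt-7 (40.0) and fgt-1 (47.3) fall in the bulk of the genes, around the median of 42.8, and those of swt-4, swt-1 and swt-3 (63.9 to 122.0) lie to its right.

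At the threshold of the whole-experiment list, the members just inside it were the swt-4 region (IDR 0.00552) and the swt-3 region at 2134 bp (IDR 0.00464), and the first outside it were swt-1 at −2593 bp (IDR 0.115, signal 51.0), swt-1 at 1475 bp (IDR 0.146, signal 46.8) and the fgt-1 candidate above. In that list no candidate of the 6 genes fell between IDR 0.00552 and 0.115, whereas the conservative list had swt-3 at 2134 bp (0.0174) and swt-7 (0.0601) in that range, and the replicate lists also had candidates there.

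The other SWEET and SLC2 genes that were matched showed no thresholded region in the whole-experiment list. The SLC2 gene fgt-2 was not looked up, since its symbol had no match. Of the SWEET genes swt-2 and swt-5, swt-5 had a region in the conservative list only (signal 61.8, IDR 0.00672) at 2192 bp, over a transfer RNA gene, as at swt-4; its IDR in the whole-experiment list was 0.0978. The SLC2 genes hmit-1.1, hmit-1.2 and hmit-1.3 encode proteins related to proton-coupled myo-inositol transporters. Of these, hmit-1.3 had a region in the conservative list only (signal 65.4, IDR 0.00451) at −1104 bp. Its whole-experiment IDR was 0.0101, just above the limit of 0.01.

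A list of transporters of the endoplasmic reticulum and Golgi, mostly for nucleotide sugars, had regions within 5 kb at 4 of 13 genes. In it, pst-1 and pst-2 carry the sulfate donor PAPS and not a nucleotide sugar. The share of all genes was 10.9%, and the 4 genes were nstp-3 (69.8), nstp-6 (69.7), nstp-10 (138.0) and pst-2 (101.0). Of these 4, nstp-6 alone was the gene with the nearest 5' end, but its region lay in an intron of osm-9, over a transfer RNA gene. The region at nstp-3 lay at −123 bp from F44E7.9, the one at nstp-10 at −91 bp from the histone gene his-37 and the one at pst-2 at −111 bp from ska-3. Genes of glucose phosphorylation, glycogen and alpha-glucosidase had regions at 5 of 10, hxk-1, pygl-1, aagr-1, aagr-2 and aagr-3, and their median length of 8031 bp was well above that of all protein-coding genes, 2027 bp, where a longer gene takes in more sequence by the distance rule. At pygl-1, aagr-1 and aagr-3 the only region lay inside a neighbour whose 5' end was nearer (T22F3.2, D2096.7 and drap-1), so 3 of these 5 genes were counted on a region of another gene. The strongest at a glucose gene was upstream of the alpha-glucosidase-related gene aagr-2 at −3311 bp (103.0), which both replicates listed. Of the 11 regions at these 9 genes, 0 had CACGTG within 50 bp of the summit, which allows a share of up to 27.3%, and 3 overlapped a transfer RNA gene. This 0 depends on the exact summit. In replicate 1 the aagr-3 candidate had its summit at −1706 instead of −1724 bp and had CACGTG within 50 bp. The difference in E-box content between these 11 regions and those at swt-1 and swt-3 was not tested.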

How the data were processed

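ChIP-seq of tagged MXL-2 was read from peak lists that the authors deposited on ce11, per the files' notes: ranked candidates and thresholded peaks for each replicate, for the whole experiment and for a conservative pair. The deposited signal is the peak caller's value per candidate, on a scale that depends on a further input file of unstated type, and the deposited −log10 column holds the −log10 of the IDR. A further deposited column gives the summit. Replicates are biological, per the labels. Neither the aligner nor the peak caller is given in the sources used here. Without read counts, depth and its precision are unknown.

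Thresholded lines were all ranked candidates with IDR at or below 0.01. A further 121 whole-experiment candidates that met this limit were not listed. Overlapping lines were joined, with the strongest summit kept (983 lines, 968 regions). Genes came from Ensembl release 115 and names from RefSeq, and fgt-1 was matched through its locus name; fgt-2 was not used here, since its symbol had no match. The 6 genes, the 4 other gene lists and the rule for names were chosen with earlier results of these data known. Named genes are all members, list genes with a whole-experiment region, the genes nearest to or holding a member region, and swt-3 neighbours; swt-5, hmit-1.3 and other members of their 2 lists were named after their values were seen. Motifs were searched on both strands. No test was made, since there is 1 group and the genes were chosen on these lists; scripts were checked on simulated data. Python 3.11.15, pandas 2.3.3 and numpy 2.4.6 were used. The share of 0 allows 3 counts and covers counting error only. Alternatives were other distances, windows, overlap rules and lists, and leaving out each replicate.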

Additional observations from a re-analysis of the deposited data

How the results depend on the processing

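The 6 regions at 3 genes stayed within 1.5 times with a distance of 10 kb, in the conservative list, with every deposited line and, in an alternative chosen after seeing the data, without regions at noncoding RNA genes (5 regions at swt-1 and swt-3). Within 2 kb there were 5 regions at 2 genes, swt-3 and swt-4, and swt-1 had none. Counting summits inside the gene gave 0 regions at 0 genes, within 1 kb 2 regions at 1 gene (swt-3), and the 50% of regions of higher signal 3 regions. Using 1 replicate's list gave 1 to 3 regions at 1 to 2 genes: swt-3 alone without replicate 2, swt-1 and swt-3 without replicate 1. The share of all genes with a region (10.9%) became 1.83% inside the gene, 4.68% within 1 kb, 6.23% within 2 kb, 17.1% within 10 kb, 7.78% without noncoding RNA genes, and 5.19% to 5.29% with 1 replicate. CACGTG lay at 0 of 6 summits within 25 bp, and at 1 to 2 regions with 1 replicate. Windows of 100 and 200 bp gave 3 and 4. The share of all regions is given for the 50 bp window only, so nothing is read from the counts at other windows. The strongest signal at swt-3 was 53.8 to 62.4 with 1 replicate, and that at swt-1 was 50.8 without replicate 1; swt-4 had no region in either replicate's list. Signals of lists are on separate scales, so these lower values cannot be read as smaller effects. The single region found in both replicates was the same under both other overlap rules. The cause of the changes with replicate was not tested. No paired analysis was possible because the study has 1 group and no test was made. The limits are 2 replicates, no control library analysed here, an unstated reference for the signal and unknown depth.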
